A study of Mus musculus with 9 samples.

Results

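The genes described here are 6 CXC chemokine genes, Cxcl1, Cxcl2, Cxcl3, Cxcl9, Cxcl10 and Cxcl16, out of 16921 genes with values in the RiboSeq table. They were taken by gene name, and the choice was made with their RiboSeq values known, so that their levels and their differences between conditions are given as a description without a test. RiboSeq measures the ribosome-protected mRNA fragments (footprints) on each gene, which is a readout of how many ribosomes translate it. The cells were TTP-deficient mouse bone marrow-derived macrophages (BMDMs), differentiated with M-CSF and immortalized with the hcmyc and hRasG12V oncogenes. CD11b and F4/80 positive cells were then transduced with tet-inducible vectors to give 3 conditions: GFP, GFP-TTP and GFP-TTP-AA, the last carrying the S52A and S178A changes at the serines that the kinase MK2 phosphorylates. All 3 conditions received doxycycline (1 µg/ml) for 6 h and LPS (1 µg/ml) for 1 h, and there were 3 libraries for each, numbered 1 to 3. Because each condition was a separately transduced line, a difference between the lines and an effect of the expressed protein cannot be told apart. No condition without LPS was analysed here, so induction by LPS was not measured.

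CXC chemokines are small secreted proteins that direct the migration of leukocytes through G protein-coupled receptors. Cxcl1, Cxcl2 and Cxcl3 bind Cxcr2 and attract neutrophils. Cxcl9 and Cxcl10 are interferon-responsive ligands of Cxcr3 on activated T cells and natural killer cells. Cxcl16 differs from the rest in that it is made as a membrane-anchored protein, which binds cells that carry Cxcr6, acts as a scavenger receptor for oxidized lipoprotein, and is released as a soluble chemokine by the proteases Adam10 and Adam17. Tristetraprolin (TTP), encoded by Zfp36, binds AU-rich elements in the 3′UTR of inflammatory mRNAs and promotes their decay or blocks their translation, and MK2 phosphorylation restrains it.

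The 6 genes lie at 2 places in the genome (GRCm38, GENCODE vM21). Cxcl3 (chr5:90786103-90789600), Cxcl1 (chr5:90891241-90893115) and Cxcl2 (chr5:90903871-90905938) are on the plus strand of chromosome 5, and Cxcl9 (chr5:92321347-92328079) and Cxcl10 (chr5:92346638-92348889) are on its minus strand. Cxcl16 lies on the minus strand of chromosome 11 (chr11:70453983-70459984). Its coding sequence has 741 bases, whereas those of the other 5 have between 291 and 381 bases.

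The AU-rich elements of these mRNAs differ. The 3′UTR of Cxcl2 holds the pentamer ATTTA 11 times and the heptamer TATTTAT, the DNA form of the element that TTP prefers, 7 times. Cxcl1 holds them 7 and 6 times, and Cxcl3 holds them 5 and 2 times. The 3′UTRs of Cxcl9, Cxcl10 and Cxcl16 hold ATTTA 3, 2 and 2 times, respectively, and the heptamer 0 times. For comparison, 62.8% of the 13460 genes with an annotated 3′UTR hold at least 1 ATTTA, and 25.5% hold at least 1 TATTTAT. The richest stretch of each of the 3 members with footprints is printed for comparison, as 29 bases of the 3′UTR in the sense direction (GRCm38), with ATTTA in capitals.
Cxcl2: ATTTATTTAtctatgtATTTATTTATTTA
Cxcl10: gtaagactacaaATTTAagtttgtaagga
Cxcl16: agctaagatgttATTTAgtccaagccagc
The Cxcl2 stretch, at bases 124 to 152 of the 3′UTR, holds 5 pentamers, which overlap within 2 runs. The stretches of Cxcl10 (bases 402 to 430) and Cxcl16 (bases 273 to 301) hold 1 pentamer each, without a T on both sides of it.

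The promoters of the chromosome 5 members were compared as well, because their levels differed widely after the same stimulus. In these promoters of 300 bases (RefSeq, GRCm38.p6), only the bases upstream of the gene start were searched for motifs. An exact match to the kappaB consensus, a pattern of sites to which NF-κB binds, was found on either strand for Cxcl1, Cxcl2, Cxcl3 and Cxcl10. It was also found in 7.25% of all 32851 promoters. Cxcl9 had no exact match, which does not mean that it lacks an NF-κB site. The core of the interferon-stimulated response element, GAAANNGAA on either strand, was found in Cxcl9 and Cxcl10 and in 7.13% of all promoters. These sequences run in the direction of transcription, with both motifs in capitals. Matches on the 2 strands that overlap were merged into 1 run of capitals. The table of promoters used here has no entry for Cxcl16.
Cxcl1, chr5:90891125-90891214, plus strand: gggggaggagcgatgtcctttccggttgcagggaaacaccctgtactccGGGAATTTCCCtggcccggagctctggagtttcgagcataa
Cxcl2, chr5:90903779-90903868, plus strand: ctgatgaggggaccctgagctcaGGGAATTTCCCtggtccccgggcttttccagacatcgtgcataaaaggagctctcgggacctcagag
Cxcl3, chr5:90785981-90786070, plus strand: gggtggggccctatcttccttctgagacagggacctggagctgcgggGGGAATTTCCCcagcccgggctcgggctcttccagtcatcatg
Cxcl9, chr5:92328110-92328299, minus strand: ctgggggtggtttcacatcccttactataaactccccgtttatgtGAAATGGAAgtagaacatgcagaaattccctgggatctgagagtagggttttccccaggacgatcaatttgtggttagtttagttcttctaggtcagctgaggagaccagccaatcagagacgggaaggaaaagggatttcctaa
Cxcl10, chr5:92348920-92349109, minus strand: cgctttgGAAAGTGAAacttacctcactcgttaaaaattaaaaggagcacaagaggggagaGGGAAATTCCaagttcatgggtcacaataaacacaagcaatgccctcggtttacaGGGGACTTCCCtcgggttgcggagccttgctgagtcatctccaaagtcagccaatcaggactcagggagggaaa
The same run of 11 bases stands in capitals in Cxcl1, Cxcl2 and Cxcl3, of which Cxcl2 had a mean level of 3460 and the other two had next to none. Cxcl10 carried 2 separate kappaB matches besides the interferon motif.

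The deposited values are not observed counts. For each gene they are the means that the authors' DESeq2 model fitted to the 9 libraries, multiplied by the size factor of each library, and their log2 values separate exactly into a part for the condition and a part for the replicate number. The 3 libraries of a condition therefore show no replicate spread, and the same ratio between conditions appears at each replicate number by construction. The error given below is the standard error (SE) of the authors' model, which rests on all 9 libraries. A level is the geometric mean of the 3 fitted values of a condition, each divided by its size factor, and log2 fold changes of such levels are shrunken towards 0 by the model, so that they understate the differences in counts. The sum of the fitted values was 2570292 in the smallest and 12804501 in the largest library, and size factors ranged from 0.416 to 2.14. All 8 macrophage markers had a level of at least 67.3, whereas the highest level among the markers of other cell types was 4.0 (Cdh5, which encodes VE-cadherin of endothelial cells). Zfp36 had levels of 460, 929 and 1529 in the GFP, GFP-TTP and GFP-TTP-AA lines and passed the Wald test across all genes in each comparison (adjusted p = 0.0048, 2.8e-09 and 0.043 for GFP-TTP against GFP, GFP-TTP-AA against GFP and GFP-TTP-AA against GFP-TTP). It counts footprints on the expressed constructs, and the source of its footprints in GFP macrophages was not tested.

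Only 3 of the 6 chemokines had a mean level of at least 10, the minimum used for comparisons, and these were Cxcl2, Cxcl10 and Cxcl16. The scaled values of Cxcl1 lay between 1.71 and 1.88 in all 9 libraries, those of Cxcl3 between 0.937 and 1.02, and those of Cxcl9 between 0.627 and 0.691. Fitted values of that size correspond to at most a few footprints per library, and shrinkage pulls them together, so that their order between conditions cannot be read.

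**Figure D1:**
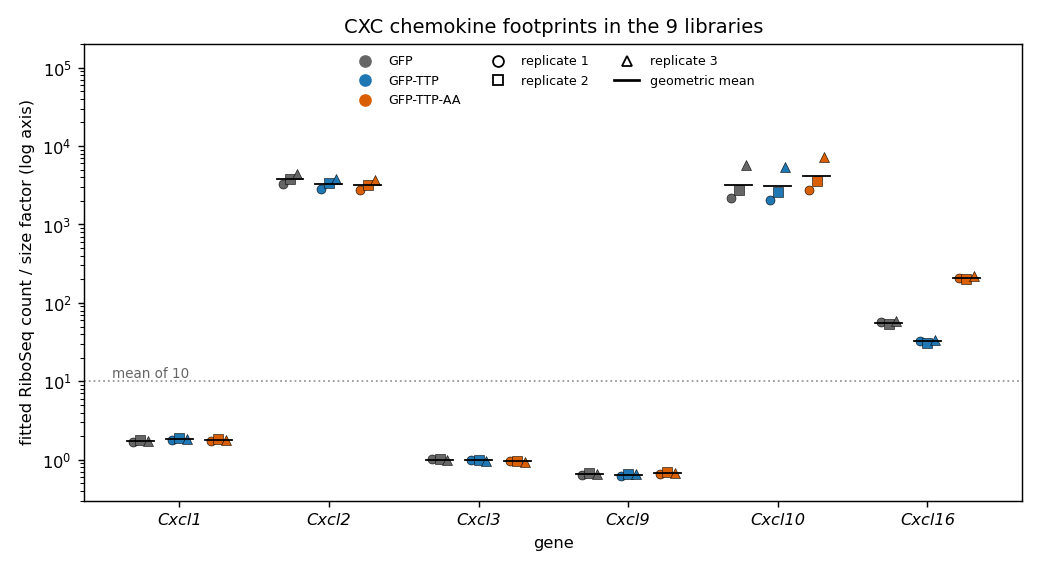
Fitted RiboSeq counts divided by the size factor (log axis) for the 6 CXC chemokines, with 1 point per library, coloured by condition and shaped by replicate number, and a line at the geometric mean of each condition. Cxcl2 and Cxcl10 sit between 2042 and 7335, Cxcl16 between 31.1 and 218, and the remaining 3 genes below the dotted line at 10, which is the minimum mean for comparisons.

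To compare genes, levels were divided by the length of the coding sequence. The mean level is an arithmetic mean, so that the high values of Cxcl10 in library 3 weigh more in it than in a geometric mean. By this mean Cxcl10 had the highest level per kb of coding sequence (12810), followed by Cxcl2 (11420), and the ranges of these 2 genes over the libraries overlapped. This order did not hold in every condition. Cxcl2 was above Cxcl10 per kb in GFP macrophages (12500.0 against 10830) and in GFP-TTP macrophages (10980 against 10300.0), and below it in GFP-TTP-AA macrophages (10540 against 14010). Cxcl16 followed with 134 per kb, and Cxcl1 (6.14), Cxcl3 (3.25) and Cxcl9 (1.74) came last. In rank among all 16921 genes by mean level without regard to length, Cxcl10 was above 98.8% of them, Cxcl2 above 98.6% and Cxcl16 above 58.1%. The position of Cxcl3 is uncertain, because its coding sequence is 89.8% identical to that of Cxcl2. Of the 276 stretches of 28 bases in the coding sequence of either gene, 74 (26.8%) also occur in the other. The authors' mapping kept up to 2 alignments per read, and how such reads were counted is not given in the sources used here. No such stretch is shared between the other members.

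Cxcl16 showed the largest difference between conditions. Its scaled values were 56.3, 53.4 and 58.6 in the GFP libraries 1, 2 and 3, 32.8, 31.1 and 34.1 in the GFP-TTP libraries, and 209.8, 199 and 218 in the GFP-TTP-AA libraries. GFP-TTP was lowest and GFP-TTP-AA highest at each replicate number, an order that the fitted values share across replicate numbers by construction. For GFP-TTP against GFP the log2 fold change was −0.78 ± 0.22 (SE), which is 1.72-fold less. For GFP-TTP-AA it was 1.90 ± 0.21 against GFP, or 3.73-fold more, and 2.68 ± 0.22 against GFP-TTP, or 6.40-fold more. These comparisons share libraries, so that they are not independent of each other.

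Cxcl10 had a smaller range over conditions than over replicate numbers, as did 53.6% of all genes with a mean level of at least 10. Its scaled values were 2147, 2735 and 5670 in the GFP libraries 1, 2 and 3, 2042, 2601 and 5393 in the GFP-TTP libraries, and 2777, 3538 and 7335 in the GFP-TTP-AA libraries. Library 3 was the highest of each condition. Values overlapped between conditions through the part for the replicate number. Each ratio between conditions was the same at every replicate number by construction. The log2 fold changes were −0.07 ± 0.25 for GFP-TTP against GFP, 0.37 ± 0.25 for GFP-TTP-AA against GFP and 0.44 ± 0.25 for GFP-TTP-AA against GFP-TTP. The 95% interval of the last ran from −0.04 to 0.93.

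Cxcl2 was highest in GFP macrophages, with 3264, 3821 and 4356, followed by 2868, 3358 and 3828 in the GFP-TTP libraries and 2751, 3221 and 3672 in the GFP-TTP-AA libraries. The 3 conditions overlapped through the part for the replicate number, and again library 3 was the highest in each. The log2 fold change was −0.19 ± 0.25 for GFP-TTP against GFP, with a 95% interval from −0.67 to 0.30. It was −0.25 ± 0.25 for GFP-TTP-AA against GFP (−0.73 to 0.24) and −0.06 ± 0.25 for GFP-TTP-AA against GFP-TTP (−0.55 to 0.43). Thus the member with the most AU-rich pentamers had the smallest difference of GFP-TTP-AA from GFP-TTP among the 3 measured members, and Cxcl16, with 2 pentamers and no heptamer, had the largest. In the annotated transcripts used here, Cxcl10 has the same counts of both motifs as Cxcl16, and its log2 fold change in that comparison was 0.44. The paper lists a longer 3′UTR for Cxcl10, so that its count depends on the transcript. With 3 genes, and with shrinkage that may differ between them, this order is a description only.

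**Figure D2:**
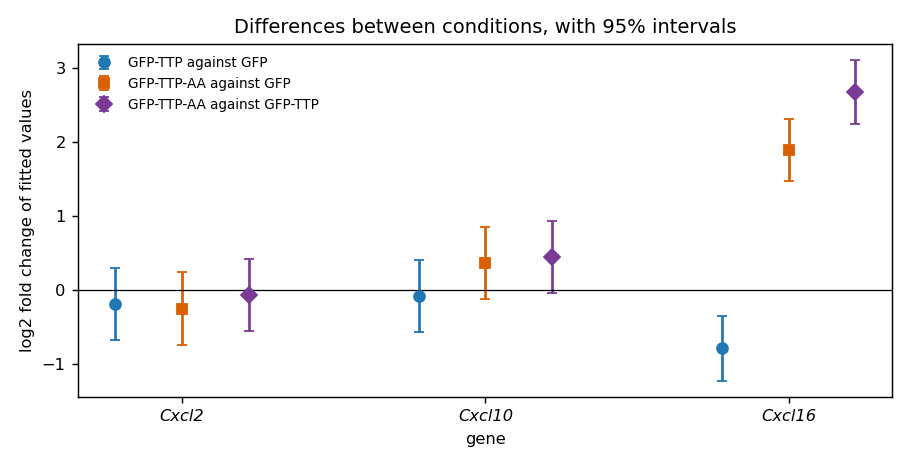
Log2 fold changes of fitted values for the 3 CXC chemokines with a mean level of at least 10, in each of the 3 comparisons, with 95% intervals (1.96 SE of the authors' model). The values of Cxcl16 run from −0.78 to 2.68, and those of Cxcl2 and Cxcl10 from −0.25 to 0.44. The intervals are those of the shrunken fold changes. The genes were chosen on these values, so that the intervals are a description and not a test.

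Calls were made across all genes, with a Wald test of the log2 fold change against the authors' SE and Benjamini-Hochberg adjustment, at an adjusted p under 0.05. For GFP-TTP against GFP, 209 of 9938 tested genes passed (2.10%), for GFP-TTP-AA against GFP 314 of 10103 (3.11%), and for GFP-TTP-AA against GFP-TTP 1039 of 10103 (10.3%). Of the 3 measured chemokines 1 passed in each comparison, and it was Cxcl16 every time. As the gene was chosen on these contrasts, nothing is read from that count. By size, Cxcl16 was 88th of 128 genes that fell with GFP-TTP against GFP, 4th of 173 that rose with GFP-TTP-AA against GFP and 4th of 545 that rose with GFP-TTP-AA against GFP-TTP. A difference at least as large as that of Cxcl10 in GFP-TTP-AA against GFP-TTP was seen for 14.5% of all tested genes, and for Cxcl2 this share was 83.5%.

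**Figure D3:**
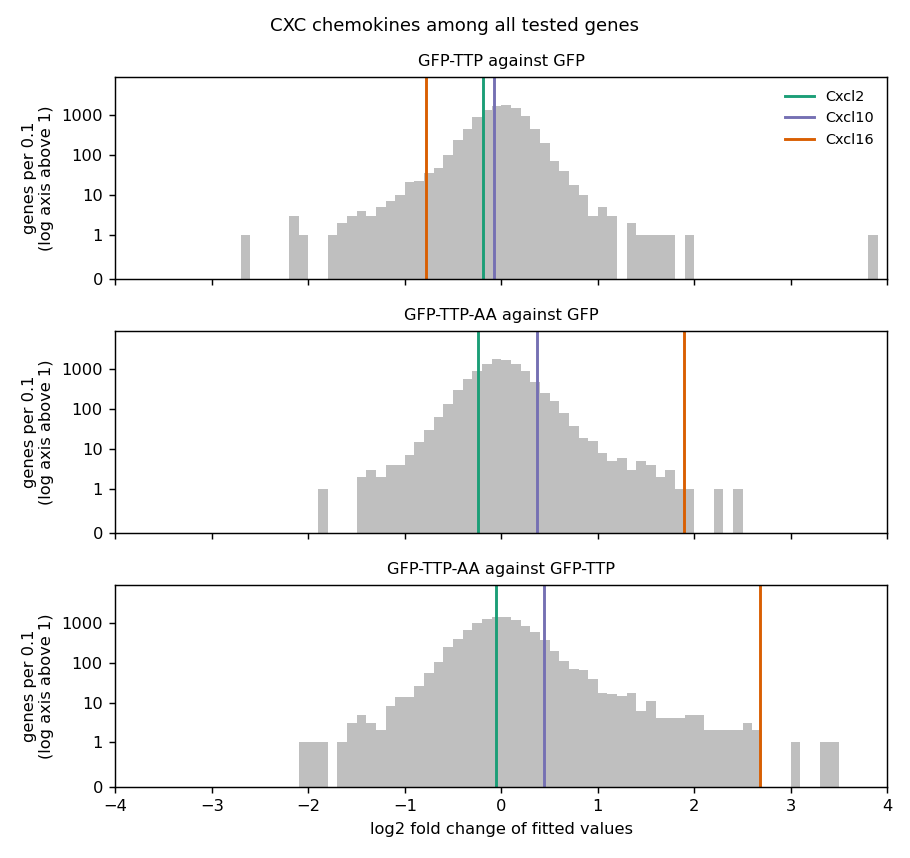
Number of tested genes per 0.1 of log2 fold change (log axis above 1) in the 3 comparisons, with vertical lines at Cxcl2, Cxcl10 and Cxcl16. Cxcl16 lies in the outer tail at 1.90 and 2.68 in the comparisons of GFP-TTP-AA and at −0.78 for GFP-TTP against GFP, whereas Cxcl2 and Cxcl10 lie within the bulk of the genes.

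The replicate-number term is the second part of the fitted values. The methods name the library date as the second term of the model, and in the values this term follows the replicate number. Averaged over conditions, Cxcl10 had levels of 2300.0, 2930 and 6076 at replicate numbers 1, 2 and 3, a range of 1.40 on the log2 scale (2.64-fold). Only 0.287% of the 10103 genes with a mean level of at least 10 had a range over replicate numbers at least as large, and the median range was 0.29. Its range over conditions was 0.44. For Cxcl2 the levels were 2953, 3457 and 3941, a range of 0.42 over replicate numbers against 0.25 over conditions. For Cxcl16 they were 72.9, 69.2 and 75.9, a range of 0.13 against 2.68 over conditions.

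All 3 measured members had their highest level at replicate number 3, as did 35.6% of all genes with a mean level of at least 10. Among 8 CC chemokines with a mean level of at least 10, replicate number 3 was highest for 5. These were Ccl2, Ccl3, Ccl4, Ccl5 and Ccl9, of which Ccl3, a ligand of Ccr1, had levels of 2054, 2676 and 3978. The profile over the 9 libraries most like that of Cxcl10 was that of Ifnb1, which encodes interferon beta (Euclidean distance of centred log2 values 0.298, against a median of 1.95 for all genes with a mean level of at least 10). The levels of Ifnb1 were 9.32, 11.2 and 24.1 at replicate numbers 1, 2 and 3. The next most alike were Relb, an NF-κB subunit (0.311), and the kinase gene Stk40 (0.363). These 3 genes were picked by this likeness, so that their sharing the pattern of Cxcl10 follows from the choice. Whether timing of the stimulus, library preparation or another difference between replicate numbers moved with these values was not tested.

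**Figure D4:**
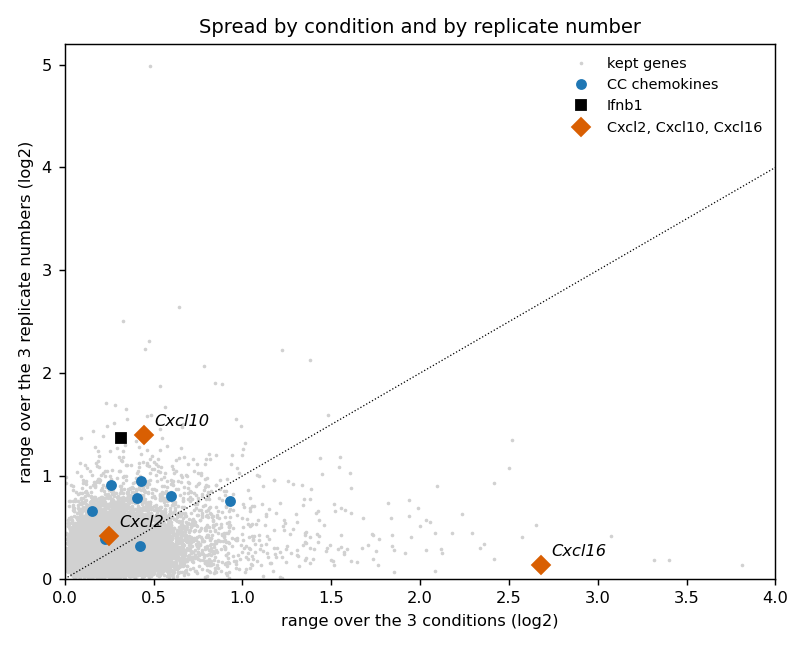
Range of log2 level over the 3 replicate numbers against the range over the 3 conditions, for all genes with a mean level of at least 10 (grey), 8 CC chemokines, Ifnb1 and the 3 measured CXC chemokines, with the line of equal ranges dotted. Cxcl10 and Ifnb1 lie above the line with ranges of 1.40 and 1.37 over replicate numbers, whereas Cxcl16 lies far to the right of it, with 2.68 over conditions. Ifnb1 is shown because its profile was the closest to that of Cxcl10.

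By the same measure, the genes most like Cxcl16 were Uchl1, which encodes a ubiquitin hydrolase (distance 0.573, against a median of 3.42), 2510009E07Rik (0.73) and Mt2, which encodes a metallothionein (0.791). Uchl1 had levels of 265, 145 and 773 in GFP, GFP-TTP and GFP-TTP-AA macrophages. Mt2 had 43.5, 25.1 and 212, and 2510009E07Rik had 34.6, 17.3 and 102.7. None of these 3 genes lies on chromosome 11. The genes most like Cxcl2 were Eaf1 (0.0964), Lrrc8c (0.105) and Nkapd1 (0.107), against a median of 0.818. The log2 fold changes of these 3 genes against GFP ran from −0.16 to −0.30, with SEs from 0.17 to 0.23. All genes named here were picked for the closeness of their fitted profile to that of the member. That they share its order of conditions therefore follows from the choice.

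The genes next to Cxcl16 were measured because each condition was 1 cell line. For GFP-TTP-AA against GFP-TTP, 54 genes with a start within 1 Mb of the start of Cxcl16 were tested, and their median log2 fold change was −0.10, with 2 higher and 8 lower past the threshold. Over the 867 tested genes of chromosome 11 the median was −0.12, with 25 higher and 77 lower, and over all 10103 tested genes it was −0.005, with 545 higher and 494 lower. The highest value among the neighbours was 1.06, for Clec10a, which encodes a macrophage C-type lectin and is named after its values were seen. Between GFP-TTP-AA and GFP the 54 neighbours had a median of −0.05 and a highest value of 0.33, with 0 higher and 4 lower past the threshold, where 3.11% of all tested genes passed. For GFP-TTP against GFP the median of 52 neighbours was 0.03 and the lowest value was −0.78, again of Clec10a, and 0 passed the Wald test after adjustment (7 at an unadjusted p under 0.05). Of all tested genes, 2.10% passed in that comparison.

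Reads of overlapping genes were considered too. Cxcl16 overlaps Zmynd15, a gene on the opposite strand, by 552 bases, and Cxcl10 lies within Art3 on the opposite strand over all of its 2252 bases. The strand setting of the counting is not given in the sources used here. The mean level of Zmynd15 was 2.50 and that of Art3 was 0.843, both far below the level of the chemokine.

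**Figure D5:**
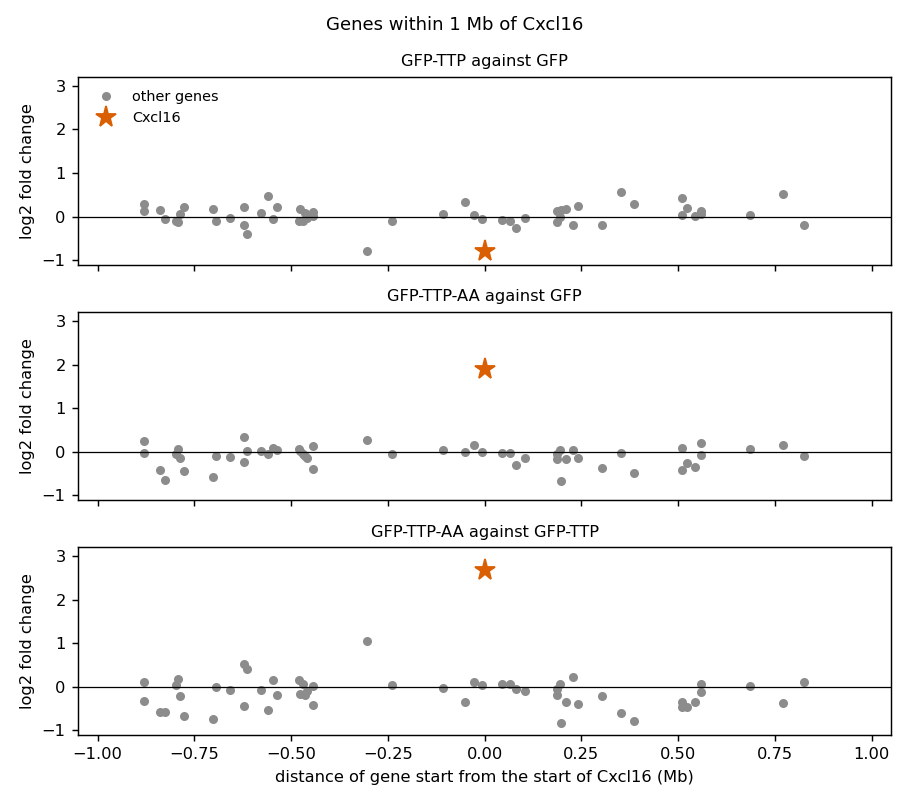
Log2 fold change of Cxcl16 (star) and of the genes with a mean level of at least 10 that start within 1 Mb of it (points), by distance from the start of Cxcl16 in Mb, in the 3 comparisons. In both comparisons of GFP-TTP-AA the star, at 1.90 and 2.68, lies above all neighbours, of which the highest reaches 0.33 and 1.06.

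Macrophage markers moved in part with Cxcl16. The summed level of the 8 markers was 88120 in the GFP line, 68220 in the GFP-TTP line and 97570 in the GFP-TTP-AA line, which is the order of the Cxcl16 levels at a much smaller range. For GFP-TTP-AA against GFP-TTP, Adgre1 (F4/80) rose by 1.21 ± 0.16 (adjusted p = 7.5e-12; Wald test, Benjamini-Hochberg), Fcgr1 by 0.71 ± 0.22 (adjusted p = 0.019) and Lyz2 by 0.62 ± 0.12 (adjusted p = 1.2e-05). Ptprc fell by 0.45 ± 0.14 (adjusted p = 0.018) and 4 markers did not pass. Between GFP-TTP and GFP, Adgre1, Lyz2 and Fcgr1 were among the markers that fell, and between GFP-TTP-AA and GFP only Adgre1 rose. The share of all tested genes past the threshold was 10.3% for GFP-TTP-AA against GFP-TTP, 2.10% for GFP-TTP against GFP and 3.11% for GFP-TTP-AA against GFP. All cells came from a population selected for F4/80 and CD11b, and the part of macrophage state in the Cxcl16 difference was not tested.

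Among the remaining CXC ligands, 4 of 9 had values and 2 had a mean level of at least 10. Cxcl14 had levels of 8.70, 8.09 and 19.5 in the GFP, GFP-TTP and GFP-TTP-AA lines. It reached the minimum mean of 10 only through the GFP-TTP-AA line, so that its log2 fold changes of 1.17 ± 0.23 against GFP and 1.27 ± 0.23 against GFP-TTP are given without a test. Pf4, platelet factor 4, had levels of 148, 111 and 161 and passed in no comparison. Cxcl11, another interferon-responsive ligand of Cxcr3, had a mean level of 2.17, so that among the interferon-responsive ligands Cxcl9, Cxcl10 and Cxcl11 only Cxcl10 had a mean level of at least 10.

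The receptors were described by 4 of 8 genes with values. Cxcr3, the receptor of Cxcl9 and Cxcl10, had levels of 127, 119 and 151 in GFP, GFP-TTP and GFP-TTP-AA macrophages, and Cxcr4, the receptor of Cxcl12, had 23.1, 22.3 and 20.5. Neither passed in any comparison. Cxcr1 and Cxcr5 had levels of at most 1.01. Cxcr6, the receptor of Cxcl16, and Cxcr2, the receptor of Cxcl1, Cxcl2 and Cxcl3, were among the genes without values in the RiboSeq table.

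Of the genes listed for the release of Cxcl16 from the membrane or for its control, 3 of 5 had a mean level of at least 10. Adam17 had levels of 1106, 1260 and 1643 in GFP, GFP-TTP and GFP-TTP-AA macrophages. It rose with GFP-TTP-AA by 0.57 ± 0.14 over GFP (adjusted p = 0.0024; Wald test, Benjamini-Hochberg) and by 0.38 ± 0.14 over GFP-TTP (adjusted p = 0.045). Adam10 had levels of 1376, 1373 and 1432, and Rhbdf2, which assists Adam17, had 482, 516 and 520.4, and neither passed in any comparison. The median log2 fold change of these 3 genes in GFP-TTP-AA against GFP-TTP was 0.06.

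As Cxcl16 is also a scavenger receptor, other receptors of that kind were measured, of which 6 of 8 had a mean level of at least 10. For GFP-TTP-AA against GFP-TTP, Msr1 (scavenger receptor A) rose by 0.81 ± 0.15 (adjusted p = 1.1e-05; Wald test, Benjamini-Hochberg) and Cd36 rose by 0.84 ± 0.25 (adjusted p = 0.011), whereas Stab1 fell by 0.38 ± 0.13 (adjusted p = 0.035). Between GFP-TTP-AA and GFP only Cd36 rose, by 1.07 ± 0.25 (adjusted p = 0.0018), and for GFP-TTP against GFP 0 of 6 passed after adjustment (2 at an unadjusted p under 0.05). Among all tested genes, 10.3% passed for GFP-TTP-AA against GFP-TTP, 3.11% for GFP-TTP-AA against GFP and 2.10% for GFP-TTP against GFP. The median log2 fold changes of the 6 genes were −0.05 for GFP-TTP against GFP, 0.25 for GFP-TTP-AA against GFP and 0.33 for GFP-TTP-AA against GFP-TTP, against medians between −0.005 and 0.003 for all tested genes.

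The pathway from TLR4, the LPS receptor, to the chemokine genes was described by 17 genes. For GFP-TTP-AA against GFP-TTP, 3 of 17 rose and 0 fell, with a median of 0.36, where 10.3% of all tested genes passed in either direction (545 of 10103 higher). These were Ifnar1, a chain of the type I interferon receptor, by 0.72 ± 0.16 (adjusted p = 0.00032; Wald test, Benjamini-Hochberg), Ly96, the partner of TLR4 in LPS binding, by 0.55 ± 0.19 (adjusted p = 0.037), and Nfkb1, an NF-κB subunit, by 0.44 ± 0.15 (adjusted p = 0.035). Tlr4 itself had levels of 218, 205 and 222 in GFP, GFP-TTP and GFP-TTP-AA macrophages, and Nfkbia, an NF-κB inhibitor that NF-κB induces, had 5002, 4258 and 5028. Neither passed. Between GFP-TTP-AA and GFP only Ifnar1 rose, by 0.56 ± 0.16 (adjusted p = 0.024), with a median of 0.17 over the list, and for GFP-TTP against GFP the median of 16 tested genes was −0.14, with 0 past the threshold of the Wald test after adjustment (0 at an unadjusted p under 0.05). The shares of all tested genes that passed in these comparisons were 3.11% and 2.10%, respectively.

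Other regulators of mRNA decay were measured because more than 1 protein acts on inflammatory mRNAs. Not all of them act through AU-rich elements, and the paper names constitutive decay elements for Roquin (Rc3h1). Zc3h12a (regnase-1) had levels of 579, 572 and 913 in GFP, GFP-TTP and GFP-TTP-AA macrophages and rose with GFP-TTP-AA by 0.66 ± 0.20 over GFP (adjusted p = 0.035; Wald test, Benjamini-Hochberg) and by 0.67 ± 0.20 over GFP-TTP (adjusted p = 0.01). Zfp36l2, a relative of TTP, had levels of 770, 436 and 496, and against GFP it fell by 0.82 ± 0.17 in the GFP-TTP line (adjusted p = 0.00018) and by 0.63 ± 0.17 in the GFP-TTP-AA line (adjusted p = 0.0095). Zfp36 rose in all 3 comparisons, and the 4 remaining tested genes of the list (Rc3h1, Elavl1, Khsrp and Hnrnpd) passed in none. The share of all tested genes that passed ran from 2.10% to 10.3% over the 3 comparisons.

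The CC chemokines served for comparison with the CXC chemokines, and 8 of 9 had a mean level of at least 10. Ccl7, a ligand of Ccr2, had levels of 801, 693 and 1320 in GFP, GFP-TTP and GFP-TTP-AA macrophages. It rose with GFP-TTP-AA by 0.72 ± 0.17 over GFP (adjusted p = 0.0029; Wald test, Benjamini-Hochberg) and by 0.93 ± 0.17 over GFP-TTP (adjusted p = 5.7e-06). Ccl3 fell by 0.43 ± 0.14 in GFP-TTP-AA against GFP-TTP (adjusted p = 0.023), and 6 of the 8 passed in no comparison. Of all tested genes, 2.10% passed for GFP-TTP against GFP, 3.11% for GFP-TTP-AA against GFP and 10.3% for GFP-TTP-AA against GFP-TTP. The log2 fold change of Cxcl16 in GFP-TTP-AA against GFP-TTP (2.68) thus stood beside values from −0.43 to 0.93 for the CC chemokines and from −0.06 to 1.27 for the other CXC chemokines with a mean level of at least 10. The difference between Cxcl16 and these chemokines was not tested.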

How the data were processed

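The authors isolated ribosome-protected fragments, mapped the reads to mm10 with TopHat (up to 2 alignments per read) and fitted counts per gene with DESeq2, with terms for library date and condition. The submitters' processing notes name Trim Galore, TopHat2 2.0.12, HTSeq and DESeq2 1.6.3. The deposited table called normalized counts (16932 lines, 16921 genes) was tested on its values. Per gene, log2 values are the sum of a condition and a replicate-number term (residual SD 1.64e-15), so they are fitted means, a signal deposited by the authors, and not counts. The authors' comparison tables hold mean signal, log2 fold changes with standard errors, statistics and p-values, and of these only the standard errors on the log2 scale were used.

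Size factors were recovered from the 9 commonest value profiles (1748 genes). Log2 fold changes of levels were divided by the standard error, and two-sided normal p-values were adjusted (Benjamini-Hochberg) over genes with a mean of at least 10 (10103 genes; threshold 0.05). The calculation was tested on simulated data. Reads per library are unknown, and so is the observed spread between libraries, so that precision is known only through the standard errors. The labels do not state whether the 3 libraries of a condition came from separate cultures, so that this error may be technical. Sequence features came from GENCODE vM21 (longest coding sequence) and RefSeq promoters, of which 5 of 6 members were matched.

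Named genes were the 6 members, Zfp36, the 3 genes nearest in profile to each member with a mean of at least 10, and from each list those past the threshold, or otherwise the 3 highest. Members and lists were chosen with earlier results of these data known. A result for 1 macrophage marker is not reported here. Alternatives were other filters, adjustments, scalings and pseudocounts. Python 3.11.15, numpy 2.4.6, pandas 2.3.3 and scipy 1.17.1 were used.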

Additional observations from a re-analysis of the deposited data

How the results depend on the processing

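Under 5 other settings (no filter on the mean, a minimum mean of 50, adjustment over the 3 comparisons together, and subtraction of the median of all genes or of the chromosome) and under 1 scaling by median of ratios, which was chosen after seeing the data, Cxcl16 was past the threshold in every comparison and Cxcl2 and Cxcl10 in none. These genes were chosen on the same values, so that this is a description and no support for a difference, and Cxcl16 reached a mean of 50 only through GFP-TTP-AA. Counts of genes past the threshold stayed within 1.5 times the reported ones. They ran from 165 to 272 for GFP-TTP against GFP, from 264 to 370 for GFP-TTP-AA against GFP, and from 841 to 1080 for GFP-TTP-AA against GFP-TTP. Of 108 fold changes of the 6 members under other scalings and pseudocounts, 107 moved by less than their standard error. The exception was Cxcl16 between GFP-TTP-AA and GFP-TTP, which was 2.36 with a pseudocount of 10 instead of 2.68. Adam17 and Zfp36 lie close to the threshold in GFP-TTP-AA against GFP-TTP, at adjusted p of 0.045 and 0.043, and other settings were not run for single genes of the lists. No paired analysis was possible because the deposited values are fitted, other than the one they already hold. The library date of the authors' model follows the replicate number, so that the fold changes and standard errors come from a fit with the replicate number as a block, and a fit without it could not be made. Leaving out each replicate could not be run, because the values hold no observed spread. Reads per library are not known, so that depth limits the low genes Cxcl1, Cxcl3 and Cxcl9 by an unknown amount.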
